A study of Mus musculus with 12 samples.

Results

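The genes described here make cholesterol and fatty acids, switch that synthesis on or off, or move sterols in and out of cells. They were chosen by name: 41 genes for sterol synthesis, its SREBP regulators, sterol transport and turnover, and fatty acid synthesis, with every probe set annotated to exactly 1 of them. Of these, 37 genes were matched, by 70 probe sets, out of 12393 genes named on the array. Acat2, Insig1, Soat1 and Acsl3 were not matched. The gene names were put together with results of these arrays in view, so each count below describes the genes and supports nothing beyond that, although every adjusted p comes from a fit over all 11102 probe sets tested. Probe sets had to pass a log2 signal of 4 in 3 or more of the 12 arrays to be tested. That left 51 of the 70 probe sets, for 33 of the 37 genes.

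Affymetrix expression arrays measured striatal RNA, the nucleus accumbens included, from female littermate mice aged 10 to 15 weeks and killed 1 hour after an injection. All 4 groups shared 5 days of handling. The 4 groups, with 3 arrays each, were control and mutant mice given saline or 25 mg/kg cocaine, a psychostimulant that raises striatal dopamine. Per the series title the study concerns SRF, the serum response factor, a transcription factor of activity-regulated genes, and the sample titles name the genotypes only as mutant and control. The altered allele of Srf, the cells it was altered in, and any allele that controls shared are named by no source used here. Groups follow the titles. The description field names other groups and the treatment text of every sample says cocaine, so which animals received saline, a treatment the series design names, rests on the titles. Srf itself measured 6.97 to 7.21 in the 6 control arrays and 5.01 to 5.49 in the 6 mutant arrays on a log2 scale, a 3.54-fold lower signal in mutants, which checks the genotype in the titles but not the treatment.

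Animal cells build cholesterol from acetyl-CoA through mevalonate, farnesyl diphosphate, squalene and lanosterol. When sterols in the endoplasmic reticulum run low, the escort protein SCAP carries the membrane-bound factor SREBP2 to the Golgi, where proteases release the part that enters the nucleus and switches on nearly every enzyme of this route, while INSIG proteins hold the complex back when sterols are plentiful. The adult brain makes its own cholesterol because lipoproteins of the blood do not cross the blood-brain barrier. Much of it lies in myelin, and astrocytes deliver more of it to neurons on ApoE particles.

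SREBP works beside the factor NF-Y, which binds the letters CCAAT, so the bases before the start sites of 4 enzymes called for genotype and of Srebf2 are shown. Dhcr7 is not shown because it has 3 such windows, 2 of them without CCAAT. The windows come from RefSeq, build GRCm38.p6. Each holds the 200 bases before the start site, 5′ to 3′ on the gene's own strand. Capitals mark CCAAT or its reverse complement ATTGG, and in Hmgcs1 also a match to TCACNCCAC, a sterol regulatory element motif. The coordinates are chr13:119690151-119690350, plus strand, for Hmgcs1, chr13:8885406-8885605, plus strand, for Idi1, chr5:4104698-4104897, minus strand, for Cyp51, chr8:64733579-64733778, minus strand, for Msmo1, and chr15:82147069-82147268, plus strand, for Srebf2.
Hmgcs1: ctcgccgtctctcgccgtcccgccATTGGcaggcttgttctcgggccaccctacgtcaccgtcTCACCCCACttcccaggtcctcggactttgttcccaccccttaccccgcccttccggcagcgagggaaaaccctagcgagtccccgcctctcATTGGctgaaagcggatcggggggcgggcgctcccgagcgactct
Idi1: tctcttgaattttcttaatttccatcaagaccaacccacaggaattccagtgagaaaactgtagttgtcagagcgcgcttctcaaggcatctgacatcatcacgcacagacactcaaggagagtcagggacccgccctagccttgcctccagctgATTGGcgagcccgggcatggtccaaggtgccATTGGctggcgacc
Cyp51: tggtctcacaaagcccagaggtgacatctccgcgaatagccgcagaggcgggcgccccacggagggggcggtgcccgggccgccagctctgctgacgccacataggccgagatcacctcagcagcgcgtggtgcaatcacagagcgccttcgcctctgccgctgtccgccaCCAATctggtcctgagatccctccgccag
Msmo1: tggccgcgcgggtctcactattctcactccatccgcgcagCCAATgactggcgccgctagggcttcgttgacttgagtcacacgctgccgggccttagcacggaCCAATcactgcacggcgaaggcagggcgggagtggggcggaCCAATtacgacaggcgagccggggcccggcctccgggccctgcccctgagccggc
Srebf2: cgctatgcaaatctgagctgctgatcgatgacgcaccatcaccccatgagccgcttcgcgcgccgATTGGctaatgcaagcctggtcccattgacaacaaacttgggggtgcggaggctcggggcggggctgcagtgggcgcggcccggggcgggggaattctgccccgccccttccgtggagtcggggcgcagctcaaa
The window of Msmo1 held 3 CCAAT motifs, those of Hmgcs1 and Idi1 held 2 each, and those of Cyp51 and Srebf2 held 1. In the longer window of 250 bases before to 50 after the start site, which was at hand for 32 of the 41 genes, CCAAT on either strand stood in 25. It stood in 14 of 15 synthesis enzymes, 4 of 5 regulators, 3 of 5 transport and turnover genes and 4 of 7 fatty acid genes, against 41.1% of 27025 genes with such a window. TCACNCCAC was found in Hmgcs1 and in no other of the 32, against 1.44% of all genes, and in that window it did not overlap a CCAAT. The E-box CACGTG was found in 7 of the 32, against 8.09% of all genes. The CArG box, the motif that SRF binds, was found in 0 of the 32, against 1.81%, and for so few genes a count of 0 is near that share. Of the 11 listed genes called higher in mutants over both treatments, 8 had such a window. These counts describe letters in a window and show no binding.

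The main pattern was a higher level of sterol synthesis enzymes in mutant striatum. Averaged over saline and cocaine, 8 of the 14 enzymes tested had a probe set called higher in mutants at an adjusted p under 0.05 (limma, Benjamini-Hochberg over all probe sets tested), and none had one called lower, nor lower at an unadjusted p under 0.05. These were Hmgcs1, Idi1, Fdft1, Sqle, Cyp51, Msmo1, Sc5d and Dhcr7, which span the route from its start at HMG-CoA to its last reduction. Among all the listed genes, calls were made for 17 of 51 probe sets in the higher direction and 2 in the lower, for 11 and 2 genes. The 17 include a dim Cyp51 and a dim Stard4 probe set that passed the filter only through mutant arrays. The calls of these 2 describe no more than that, and both genes were also called on a brighter probe set. The background over all probe sets was 4.41% called higher and 5.05% called lower. All 14 enzymes had a positive difference, with a median of 0.34 and a range of 0.09 to 0.73 on the log2 scale, where the median over all 6651 genes tested was -0.02. With the 3 dim enzymes added, 16 of 17 were positive and the median was 0.29. Adjusted p-values are two-sided and measure the spread between arrays, which the titles call biological replicates, and levels are not compared between genes because probe sets differ in how brightly they bind.

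**Figure D1:**
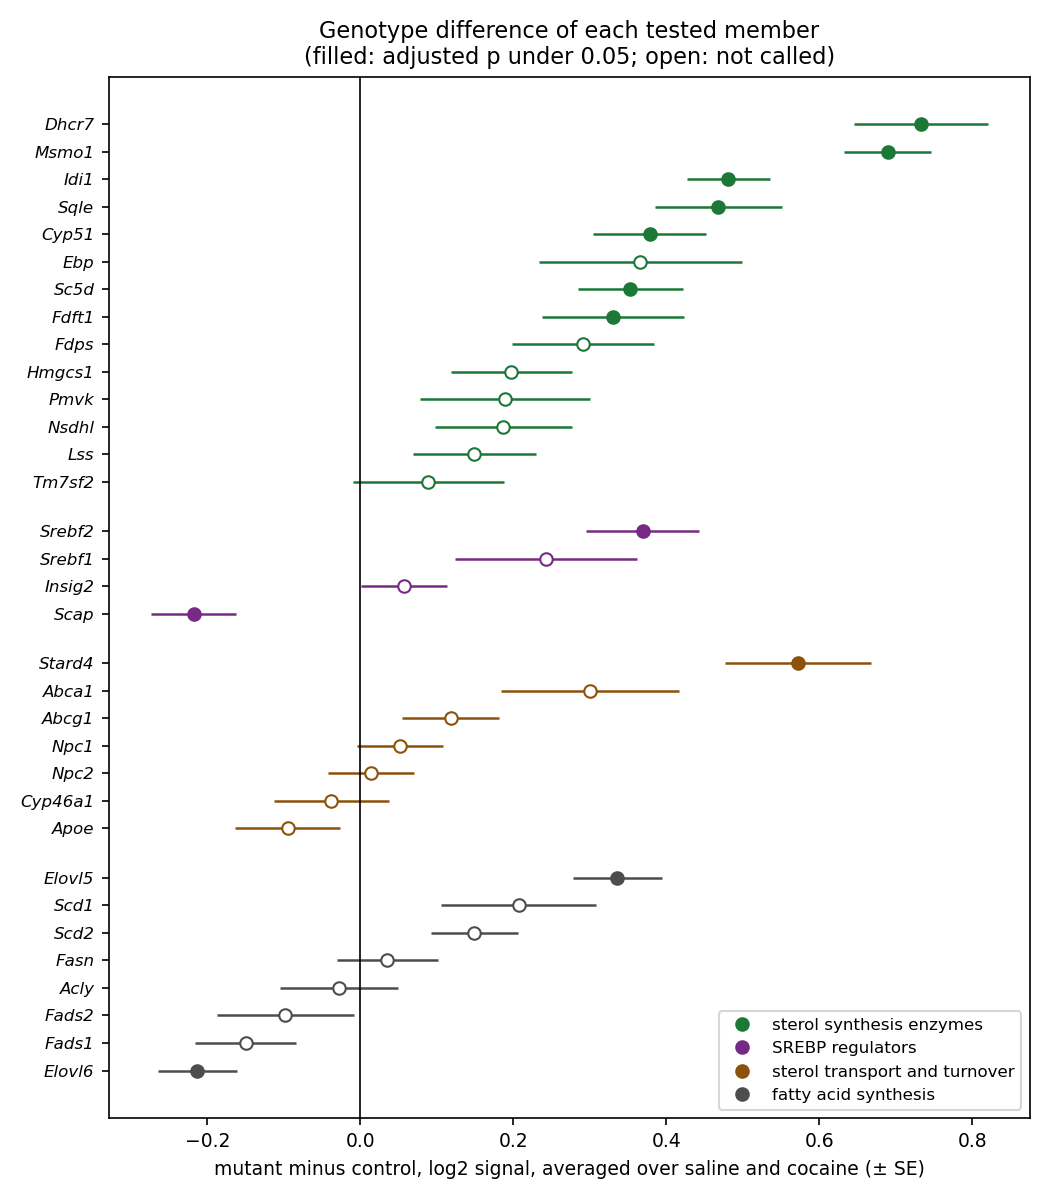
Mutant minus control difference of log2 signal, averaged over saline and cocaine, with its standard error, for the brightest tested probe set of each of 33 genes, ordered by role; filled points had an adjusted p under 0.05. The 14 synthesis enzymes all lie right of 0, up to 0.73 for Dhcr7, while the transport and fatty acid genes lie on both sides of 0.

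Msmo1, a methylsterol oxidase that strips methyl groups from lanosterol's descendants, had the smallest adjusted p of the listed genes for genotype. Its log2 signals were 8.24, 8.41 and 8.31 in saline-treated controls, 8.51, 8.53 and 8.54 in cocaine-treated controls, 9.04, 9.10 and 9.22 in saline-treated mutants and 9.17, 8.99 and 9.14 in cocaine-treated mutants. Every mutant array lay above every control array. The group means were 8.32 ± 0.087 and 8.52 ± 0.018 in controls after saline and cocaine and 9.12 ± 0.089 and 9.10 ± 0.095 in mutants (SD, n = 3 each), so that mutants were 1.61-fold higher over both treatments (log2 difference 0.69, SE 0.057, adjusted p = 7.47e-06). Dhcr7 encodes the reductase that turns the last precursor into cholesterol. It measured 5.23, 5.41 and 5.37 in saline-treated controls, 5.16, 5.16 and 5.27 in cocaine-treated controls, 6.10, 5.81 and 6.19 in saline-treated mutants and 5.69, 6.13 and 6.08 in cocaine-treated mutants. These groups did not overlap between genotypes either, and the mutant level was 1.66-fold higher (log2 0.73, SE 0.087, adjusted p = 0.000164).

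Squalene epoxidase, encoded by Sqle, performs the oxygen-requiring step that commits squalene to sterols. Its signals were 5.88, 5.91 and 5.75 in saline-treated controls, 5.91, 6.09 and 5.82 in cocaine-treated controls, 6.21, 6.29 and 6.67 in saline-treated mutants and 6.26, 6.30 and 6.43 in cocaine-treated mutants, again with no overlap between genotypes and a 1.38-fold higher mutant level (log2 0.47, SE 0.083, adjusted p = 0.00315). Sc5d, a sterol desaturase near the end of the route, measured 6.33, 6.61 and 6.68 in saline-treated controls, 6.67, 6.71 and 6.66 in cocaine-treated controls, 6.72, 6.76 and 6.88 in saline-treated mutants and 7.21, 7.19 and 7.01 in cocaine-treated mutants. The mutant arrays all lay above the control arrays, those given saline by a small margin, and the mutant level was 1.28-fold higher (log2 0.35, SE 0.069, adjusted p = 0.00598).

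Cyp51, the lanosterol demethylase, had 2 tested probe sets, and both were called. The brighter measured 5.83, 5.74 and 5.79 in saline-treated controls, 5.55, 5.73 and 5.85 in cocaine-treated controls, 5.90, 5.81 and 6.04 in saline-treated mutants and 6.48, 6.36 and 6.15 in cocaine-treated mutants. Its saline-treated mutants overlapped the controls and its cocaine-treated mutants lay above every other array, for a 1.30-fold difference over both treatments (log2 0.38, SE 0.074, adjusted p = 0.00613). The dimmer measured 3.56, 3.52 and 3.57 in saline-treated controls, 3.83, 3.53 and 3.74 in cocaine-treated controls, 3.97, 4.16 and 4.46 in saline-treated mutants and 4.75, 4.68 and 4.78 in cocaine-treated mutants, and mutants were 1.80-fold higher (log2 0.84, SE 0.081, adjusted p = 3.04e-05). All 6 of its control arrays lay under the signal of 4 that the filter asked for, so this probe set passed through the mutant arrays and had to differ.

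Idi1, the isomerase that readies isoprene units for joining, also had both tested probe sets called. The brighter measured 6.36, 6.34 and 6.43 in saline-treated controls, 6.60, 6.62 and 6.48 in cocaine-treated controls, 6.60, 6.65 and 6.78 in saline-treated mutants and 7.27, 7.25 and 7.18 in cocaine-treated mutants. The saline-treated mutants overlapped the cocaine-treated controls and the cocaine-treated mutants lay above every other array, and mutants were 1.40-fold higher over both treatments (log2 0.48, SE 0.055, adjusted p = 0.000115). The dimmer probe set gave a log2 difference of 0.72 (SE 0.13, adjusted p = 0.00396) from control signals of 3.96 to 4.52 and mutant signals of 4.51 to 5.26.

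Hmgcs1, which makes HMG-CoA at the head of the mevalonate route and is a classic SREBP2 target, had smaller differences. Of its 4 probe sets, 2 were called. One of them measured 8.64, 8.98 and 8.76 in saline-treated controls, 8.64, 8.80 and 8.83 in cocaine-treated controls, 9.12, 8.995 and 9.42 in saline-treated mutants and 8.91, 9.14 and 9.03 in cocaine-treated mutants, and mutants were 1.25-fold higher (log2 0.33, SE 0.085, adjusted p = 0.0301). The other called probe set gave a log2 difference of 0.39 (adjusted p = 0.047), with control signals of 6.65 to 7.20 and mutant signals of 7.14 to 7.72. The brightest of the 4 was not called. It measured 9.03, 9.21 and 9.16 in saline-treated controls, 9.27, 9.35 and 9.31 in cocaine-treated controls, 9.27, 9.30 and 9.74 in saline-treated mutants and 9.34, 9.40 and 9.46 in cocaine-treated mutants, with a difference of 0.20 (SE 0.079, adjusted p = 0.149). Dropping 1 array at a time ended the call of the first in 6 and of the second in 9 of 12 refits, with an adjusted p of up to 0.0751 (without control cocaine replicate 1) and 0.103 (without mutant cocaine replicate 2).

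Fdft1, the squalene synthase, was called on the brighter of its 2 tested probe sets. That one measured 7.86, 7.68 and 7.51 in saline-treated controls, 7.46, 7.80 and 7.70 in cocaine-treated controls, 8.21, 7.81 and 8.01 in saline-treated mutants and 8.11, 8.06 and 7.79 in cocaine-treated mutants, with overlapping genotypes and a log2 difference of 0.33 (SE 0.093, 1.26-fold, adjusted p = 0.0425). The call was lost in 8 of the 12 fits that left out 1 array each, with an adjusted p of up to 0.101 (without control cocaine replicate 1). The second probe set gave 0.20 (adjusted p = 0.0752).

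The remaining enzymes were not called for genotype. Fdps, the farnesyl diphosphate synthase, was the brightest enzyme with no call in any comparison and measured 6.13, 5.98 and 6.04 in saline-treated controls, 6.23, 6.004 and 5.74 in cocaine-treated controls, 6.41, 6.30 and 6.74 in saline-treated mutants and 6.11, 6.24 and 6.06 in cocaine-treated mutants, a difference of 0.29 (SE 0.093, adjusted p = 0.0681). Its saline-treated mutants lay above all controls and its cocaine-treated mutants did not. Ebp, a sterol isomerase with mean signals of 5.17 to 5.68 in the 4 groups, differed by 0.37 (adjusted p = 0.108). Nsdhl, a sterol dehydrogenase at 5.94 to 6.31, differed by 0.19 (adjusted p = 0.23), and Lss, which closes the lanosterol rings, by 0.15 at group means of 4.90 to 5.10 (adjusted p = 0.292). Tm7sf2, a sterol reductase at 4.01 to 4.23, differed by 0.089 (adjusted p = 0.641). Mvk, Mvd and Hsd17b7, 2 mevalonate enzymes and a sterol reductase, had group means of 2.25 to 3.93 on every probe set and were too dim to test. The brightest Mvd probe set was lower in mutants, with means of 3.36 and 3.50 in controls and 3.20 and 3.13 in mutants.

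**Figure D2:**
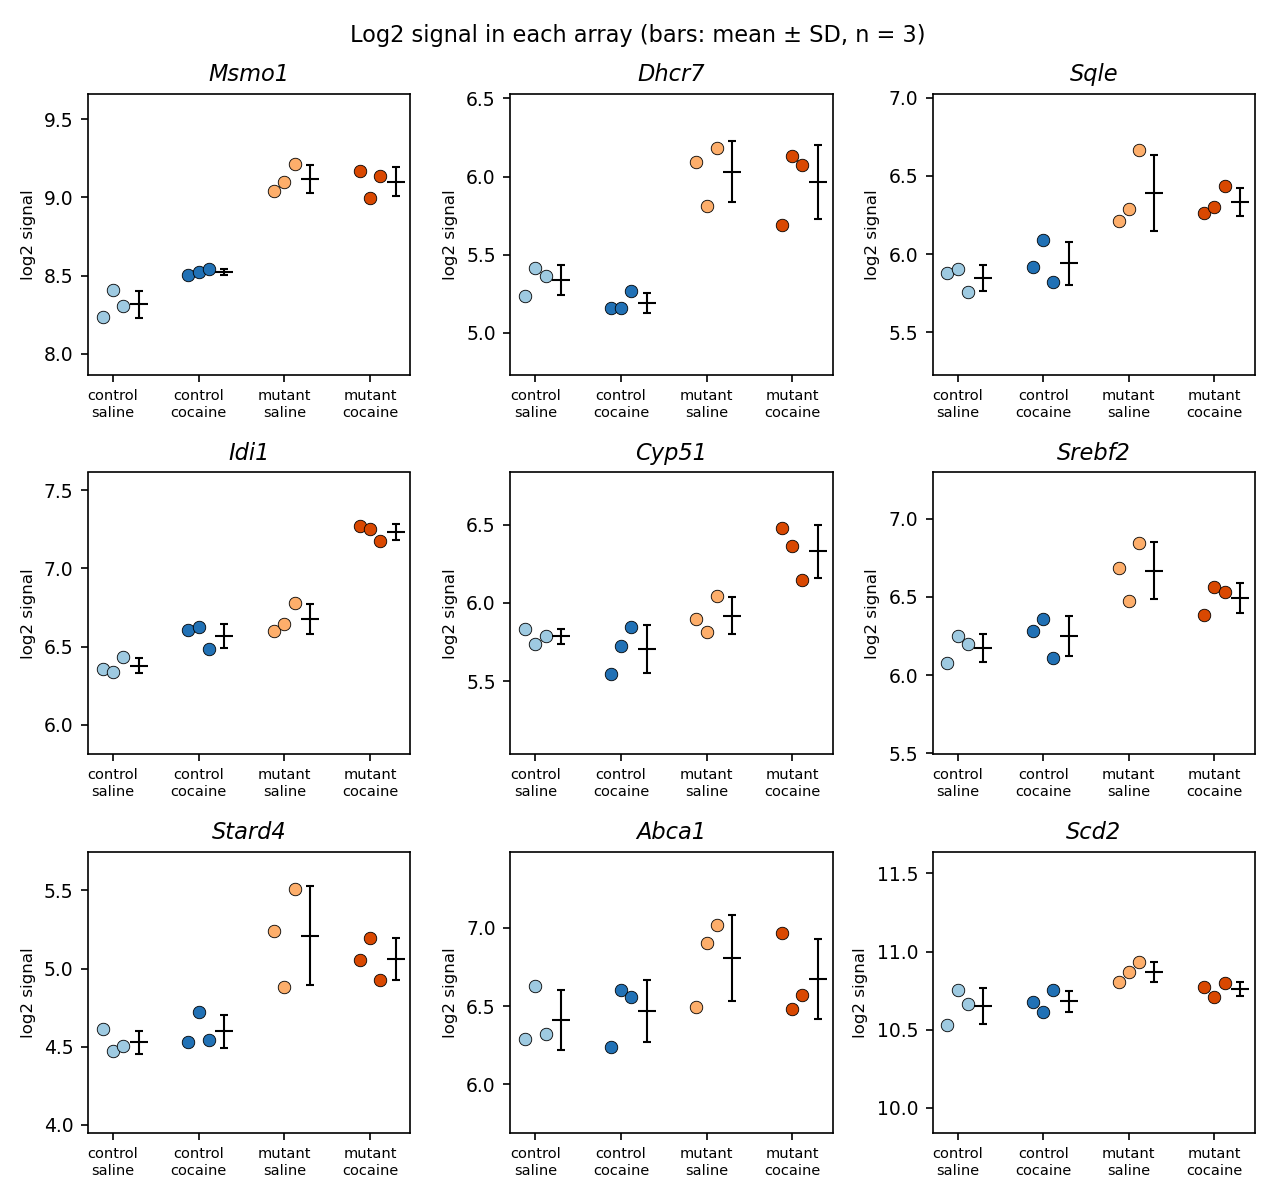
Log2 signal (vertical axis) of each of the 12 arrays, by group, for 5 synthesis enzymes, Srebf2, Stard4, Abca1 and Scd2, with the mean and SD of each group of 3 beside the points; all panels span the same number of log2 units. Mutant arrays of Msmo1 (8.99 to 9.22) lie above its control arrays (8.24 to 8.54), whereas the arrays of Abca1 overlap.

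When the enzymes were divided by their place in the route, a division made after the values had been seen, both stretches held called genes. From acetyl-CoA to farnesyl diphosphate, 2 of 4 tested genes were called higher, Hmgcs1 and Idi1, with a median difference of 0.24 over the 4. From squalene to cholesterol, 6 of 10 were called higher, with a median of 0.36. Whether the stretches differed was not tested.

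Among the SREBP regulators, the gene for SREBP2 itself was higher in mutants and the gene for its escort was lower. Srebf2 was called on both of its probe sets. The brighter measured 6.07, 6.25 and 6.20 in saline-treated controls, 6.28, 6.36 and 6.11 in cocaine-treated controls, 6.69, 6.48 and 6.84 in saline-treated mutants and 6.38, 6.56 and 6.53 in cocaine-treated mutants. No mutant array fell below any control array, although the lowest mutant and the highest control value, 6.38 and 6.36, nearly met. The level was 1.29-fold higher in mutants (log2 0.37, SE 0.074, adjusted p = 0.00676). On the dimmer probe set, 4.56, 4.98 and 5.03 in saline-treated controls, 4.80, 5.11 and 4.97 in cocaine-treated controls, 5.62, 5.35 and 5.58 in saline-treated mutants and 5.24, 5.48 and 5.58 in cocaine-treated mutants, the genotypes did not overlap either, and the log2 difference was 0.57 (SE 0.098, adjusted p = 0.00265). Scap, by contrast, measured 7.38, 7.21 and 7.21 in saline-treated controls, 7.24, 7.34 and 7.26 in cocaine-treated controls, 7.15, 6.96 and 6.996 in saline-treated mutants and 7.08, 7.06 and 7.08 in cocaine-treated mutants. Every mutant array lay below every control array, and the log2 difference was -0.22 (SE 0.056, 1.16-fold lower, adjusted p = 0.0272). That small difference was called in 5 of the 12 fits that left out 1 array, and the largest adjusted p among them was 0.0667 (without mutant saline replicate 2).

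Srebf1, which encodes the SREBP form tied mainly to fatty acid synthesis, was not called. It measured 6.07, 5.33 and 5.55 in saline-treated controls, 5.32, 5.71 and 5.41 in cocaine-treated controls, 6.17, 6.03 and 5.84 in saline-treated mutants and 5.44, 5.72 and 5.64 in cocaine-treated mutants, with wide spread in the saline-treated controls and a difference of 0.24 (SE 0.12, adjusted p = 0.244). Insig2, the brightest uncalled regulator, measured 7.18, 7.11 and 7.20 in saline-treated controls, 7.33, 7.38 and 7.17 in cocaine-treated controls, 7.20, 7.20 and 7.30 in saline-treated mutants and 7.42, 7.34 and 7.26 in cocaine-treated mutants on its brightest probe set, with overlapping groups and a difference of 0.057 (SE 0.057, adjusted p = 0.596). Its other probe sets differed by 0.049 and -0.012. The median over the 4 regulators tested was 0.15.

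Of the 7 transport and turnover genes tested, Stard4 was called higher in mutants and no gene was called lower, with a median difference of 0.05. In probe sets this was 2 of 9 higher and 0 of 9 lower, beside a background of 4.41% and 5.05%. STARD4 is a soluble protein that shuttles cholesterol between membranes, and its gene is a known SREBP2 target, unlike the efflux pumps. Its brighter probe set measured 4.61, 4.47 and 4.50 in saline-treated controls, 4.53, 4.72 and 4.54 in cocaine-treated controls, 5.24, 4.88 and 5.51 in saline-treated mutants and 5.05, 5.20 and 4.93 in cocaine-treated mutants. Every mutant array lay above every control array, and mutants were 1.49-fold higher (log2 0.57, SE 0.095, adjusted p = 0.00208). The dimmer probe set, at 3.53, 3.61 and 3.41 in saline-treated controls, 3.64, 3.62 and 3.67 in cocaine-treated controls, 4.13, 4.22 and 4.06 in saline-treated mutants and 3.89, 4.46 and 3.88 in cocaine-treated mutants, gave a log2 difference of 0.53 (adjusted p = 0.0033), but it too passed the filter through mutant arrays, since all its control signals were under 4.

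The efflux pump gene Abca1, which is switched on by oxysterols through LXR, measured 6.29, 6.63 and 6.32 in saline-treated controls, 6.24, 6.60 and 6.56 in cocaine-treated controls, 6.49, 6.90 and 7.02 in saline-treated mutants and 6.97, 6.48 and 6.57 in cocaine-treated mutants. The groups overlapped, and the difference was 0.30 (SE 0.12, adjusted p = 0.13). Apoe, the carrier protein of brain lipoproteins and the brightest uncalled gene of this role, measured 10.92, 10.97 and 11.13 in saline-treated controls, 10.78, 10.94 and 11.03 in cocaine-treated controls, 10.84, 10.91 and 10.83 in saline-treated mutants and 10.90, 11.01 and 10.72 in cocaine-treated mutants, a difference of -0.095 (SE 0.068, adjusted p = 0.444). The other transport genes were not called. Abcg1, a second efflux pump at group means of 7.40 to 7.60, differed by 0.12, and Npc1 and Npc2, which release cholesterol from lysosomes, by 0.052 at 5.12 to 5.33 and by 0.014 at 7.71 to 7.81. Cyp46a1, the neuronal hydroxylase through which the brain disposes of cholesterol, differed by -0.038 at 9.08 to 9.16. The adjusted p-values of these 4 genes lay between 0.288 and 0.91.

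Of 8 fatty acid genes tested, Elovl5 was called higher and Elovl6 lower in mutants, and the median difference was 0.004. In probe sets this was 2 of 15 higher and 1 of 15 lower, beside a background of 4.41% and 5.05%. Elovl5, an elongase of polyunsaturated fatty acids, was called on both of its probe sets. The brighter measured 8.14, 8.33 and 8.33 in saline-treated controls, 8.54, 8.42 and 8.39 in cocaine-treated controls, 8.47, 8.55 and 8.65 in saline-treated mutants and 8.90, 8.79 and 8.80 in cocaine-treated mutants. The genotypes overlapped through 1 pair of groups, the cocaine-treated controls and the saline-treated mutants, and the level was 1.26-fold higher in mutants (log2 0.34, SE 0.059, adjusted p = 0.00302). The other probe set gave 0.34 (adjusted p = 0.00762). Elovl6, which lengthens saturated and monounsaturated chains, measured 6.44, 6.55 and 6.56 in saline-treated controls, 6.60, 6.72 and 6.59 in cocaine-treated controls, 6.34, 6.37 and 6.40 in saline-treated mutants and 6.30, 6.35 and 6.43 in cocaine-treated mutants. All mutant arrays lay below all control arrays, and the log2 difference was -0.21 (SE 0.052, 1.16-fold lower, adjusted p = 0.0217). That call was lost in 3 of the 12 fits that left out 1 array each, with an adjusted p of up to 0.0549 (without mutant cocaine replicate 1). The dimmer Elovl6 probe set gave -0.066 and was not called (adjusted p = 0.644).

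The genes that make the bulk fatty acids were not called for genotype. Scd2, the main stearoyl-CoA desaturase of brain, was the brightest and measured 10.53, 10.76 and 10.66 in saline-treated controls, 10.68, 10.62 and 10.75 in cocaine-treated controls, 10.80, 10.87 and 10.94 in saline-treated mutants and 10.77, 10.71 and 10.80 in cocaine-treated mutants, a difference of 0.15 (SE 0.057, adjusted p = 0.125). The saline-treated mutants lay above all controls and the cocaine-treated mutants overlapped them. Scd1, its relative and a classic SREBP target, measured 7.08, 7.57 and 7.80 in saline-treated controls, 7.67, 7.86 and 7.71 in cocaine-treated controls, 7.83, 7.79 and 7.79 in saline-treated mutants and 7.78, 7.80 and 7.96 in cocaine-treated mutants. Control saline replicate 1 was the lowest array, and the difference was 0.21 (SE 0.10, adjusted p = 0.237). Fasn, the fatty acid synthase, had group means of 7.22 to 7.41 and differed by 0.035. Acly, which supplies acetyl-CoA from citrate, differed by -0.028 at 8.07 to 8.27. The desaturases Fads1 and Fads2 differed by -0.15 at 7.98 to 8.14 and by -0.098 at 5.30 to 5.43, and Acaca, the acetyl-CoA carboxylase, was too dim to test at 2.38 to 2.53. The adjusted p-values of these 4 tested genes lay between 0.188 and 0.869.

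The roles were also set side by side array by array. For each array, the deviation of every tested gene from its own mean over the 12 arrays was averaged within a role. For the synthesis enzymes this average was -0.20, -0.22 and -0.18 in saline-treated controls and -0.15, -0.13 and -0.17 in cocaine-treated controls. It was 0.09, 0.04 and 0.24 in saline-treated mutants and 0.22, 0.27 and 0.20 in cocaine-treated mutants. The genotypes did not overlap, and mutant saline replicate 3 stood highest of its group. The transport genes spanned -0.111 to -0.021 (controls) and -0.019 to 0.174 (mutants), so their genotypes did not overlap either, by a narrow margin. That average includes Stard4, the called gene of this role, which differed by 0.57. Of the 7 transport genes, 5 had a positive difference, the median was 0.05 and the lowest was -0.095. The fatty acid genes spanned -0.20 to 0.11 (controls) and -0.03 to 0.04 (mutants), the mutants within the range of controls. The regulators, at -0.15 to 0.07 and -0.04 to 0.18, overlapped between genotypes. No test was made of the difference between roles, because the genes were chosen with results known.

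**Figure D3:**
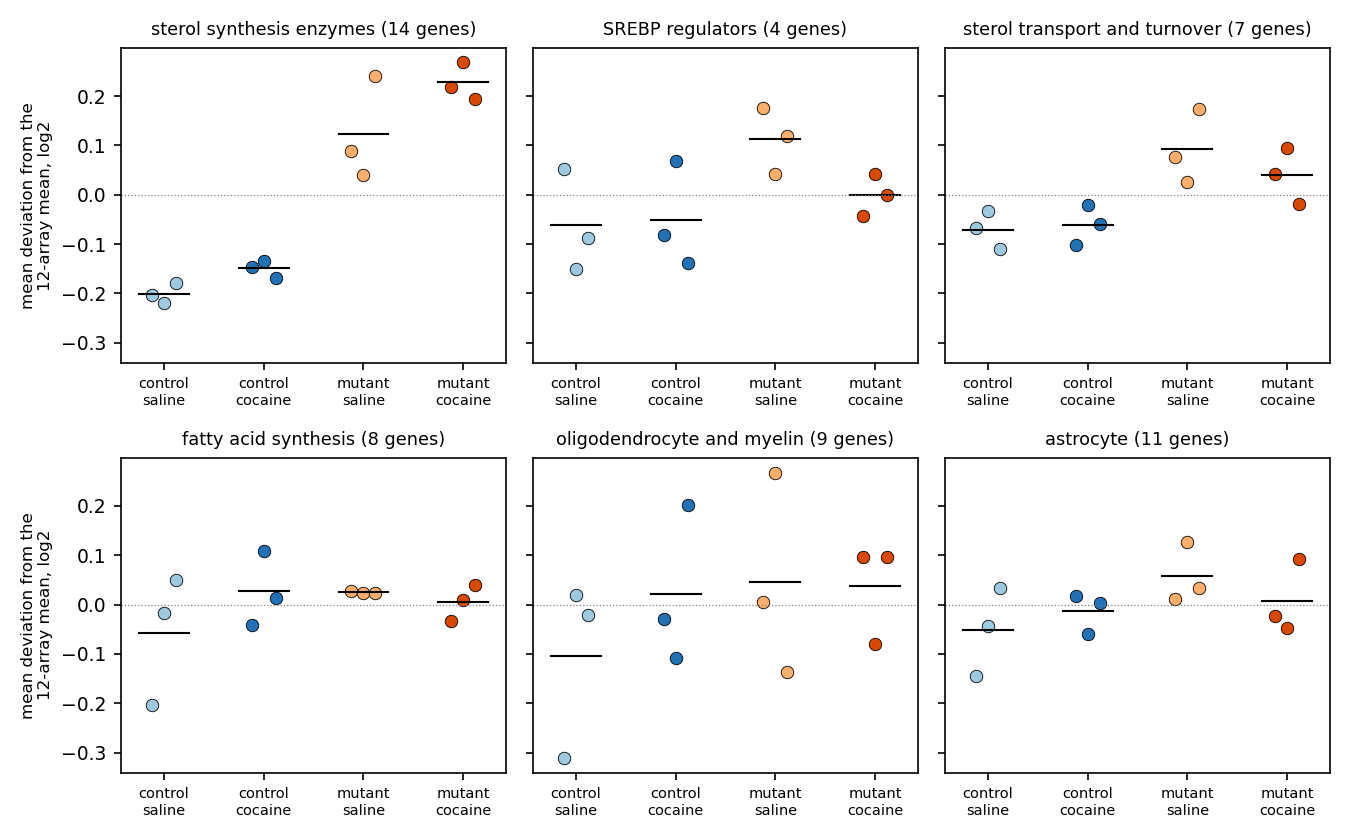
Mean deviation of the tested genes of a role or marker list from their own 12-array mean (log2, vertical axis), 1 point per array and a line at each group mean. The synthesis enzymes separate the 6 mutant arrays (0.04 to 0.27) from the 6 control arrays (-0.22 to -0.13), while the fatty acid, oligodendrocyte and astrocyte lists overlap between genotypes.

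Over all the listed genes, 9 probe sets of 7 genes (Cyp51, Msmo1, Sqle, Sc5d, Dhcr7, Srebf2 and Stard4) had all 6 mutant arrays above all 6 control arrays, as did 2.05% of all probe sets tested. The dim Cyp51 probe set and 1 of the 2 Stard4 probe sets are among them and passed the filter through mutant arrays, and the brighter Cyp51 probe set is not among them. The probe sets of Scap and Elovl6 named above had all mutant arrays below all controls, as did 3.12% of all.

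Calls for genotype were made after either injection. After saline, 8 probe sets were called higher and 0 lower, for Msmo1, Dhcr7, Sqle, Cyp51, Srebf2 and Stard4, beside a background of 1.34% higher and 1.64% lower. Among the 8, the Cyp51 call and 1 of the 2 Stard4 calls come from the dim probe sets that passed the filter through mutant arrays. After cocaine, 8 were called higher and 0 lower, for Msmo1, Dhcr7, Cyp51, Idi1, Sc5d and Elovl5, where the background was 2.27% higher and 1.92% lower. Here too, 1 of the 2 Cyp51 calls comes from the dim probe set that passed the filter through mutant arrays. Beside these counts of 0 from limma, 2 probe sets (Scap and Fads2) were lower at an unadjusted p under 0.05 after saline and 3 (Scap, Elovl6 and Insig2) after cocaine. The 2 comparisons share no arrays, and 42 of the 51 probe sets had the same sign in both, as did 18 of 20 enzyme probe sets, all 18 of them positive. The median over the enzymes was 0.30 after saline and 0.42 after cocaine, beside -0.01 and -0.02 over all genes. Srebf2 differed by 0.50 after saline (adjusted p = 0.0216) and by 0.24 after cocaine (adjusted p = 0.249). Idi1 ran the other way, with 0.30 after saline (adjusted p = 0.0596) and 0.66 after cocaine (adjusted p = 0.000291), and so did the brighter Cyp51 probe set, with 0.13 (adjusted p = 0.621) and 0.63 (adjusted p = 0.00387). Without mutant saline replicate 3 or without control saline replicate 3, the 8 calls after saline became 5. Without mutant cocaine replicate 1 or without control cocaine replicate 3, the 8 calls after cocaine became 5.

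Few of these genes were called for cocaine 1 hour after the injection, and those that were are sterol synthesis enzymes. In mutants, Idi1, Cyp51 and Pmvk had a probe set called higher after cocaine and no listed gene had one called lower (2 probe sets, of Fdps and Srebf1, were lower at an unadjusted p under 0.05), beside a background of 1.76% higher and 0.162% lower. The Idi1 signals given above rose from 6.68 ± 0.095 to 7.23 ± 0.052 (SD, n = 3), 1.47-fold (log2 0.56, SE 0.077, adjusted p = 0.00149). The dim Cyp51 probe set rose by 0.54 (SE 0.12, adjusted p = 0.0311), and the brighter one by 0.41 without reaching the threshold (SE 0.11, adjusted p = 0.0752). The dim one passed the filter through mutant arrays and was highest in those given cocaine, so its call describes no more than that. Pmvk, the kinase that makes mevalonate diphosphate, measured 5.40, 5.07 and 5.34 in saline-treated controls, 5.20, 5.36 and 5.27 in cocaine-treated controls, 5.52, 5.05 and 4.79 in saline-treated mutants and 5.83, 5.94 and 5.66 in cocaine-treated mutants. Its cocaine-treated mutants lay above every other array, and the rise in mutants was 1.61-fold (log2 0.69, SE 0.16, adjusted p = 0.0422). Pmvk kept this call in 3 of the 12 fits that left out 1 array, and its largest adjusted p was 0.162 (without mutant cocaine replicate 1). The dim Cyp51 call was kept in 7 of 12 and the Idi1 call in 12 of 12. The count of 3 probe sets fell to 1 without mutant cocaine replicate 1, without mutant cocaine replicate 2 or without mutant saline replicate 2.

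In controls, 0 of the 51 probe sets were called by limma for cocaine, where 0.450% of all probe sets were called in either direction. At an unadjusted p under 0.05 there were 5 of the 51, beside 704 of all 11102 probe sets tested. The 5 belonged to Insig2, Acly, Msmo1, Idi1 and Elovl5. One Insig2 probe set came nearest to a call, with signals of 5.74, 5.79 and 5.68 in saline-treated controls, 6.13, 6.20 and 6.03 in cocaine-treated controls, 5.996, 5.87 and 5.82 in saline-treated mutants and 6.01, 5.87 and 5.93 in cocaine-treated mutants. Its cocaine-treated controls lay above every other array, and the difference in controls was 0.39 (SE 0.08, adjusted p = 0.064). Neither of the other Insig2 probe sets, at 0.13 and -0.085, showed this size. Idi1 changed by 0.19 in controls (SE 0.077, adjusted p = 0.693) and Msmo1 by 0.21 (SE 0.081, adjusted p = 0.68).

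Averaged over genotypes, Idi1 rose with cocaine by 0.38 (SE 0.055, 1.30-fold, adjusted p = 0.00153) and the dim Cyp51 probe set by 0.35 (SE 0.081, adjusted p = 0.0454), beside a background of 2.11% called higher and 0.207% lower. This Cyp51 call has the same limit, since the probe set passed the filter through mutant arrays and was highest in those given cocaine. The brighter Cyp51 probe set changed by 0.165 and was not called (SE 0.074, adjusted p = 0.413). No other listed probe set was called, and 5 were lower at an unadjusted p under 0.05. The Cyp51 call was kept in 2 of the 12 fits without 1 array, and its largest adjusted p was 0.118 (without control cocaine replicate 1). The median cocaine change was 0.06 over the enzymes, -0.01 over the regulators, -0.04 over the transport genes and 0.01 over the fatty acid genes, beside -0.01 over all genes.

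**Figure D4:**
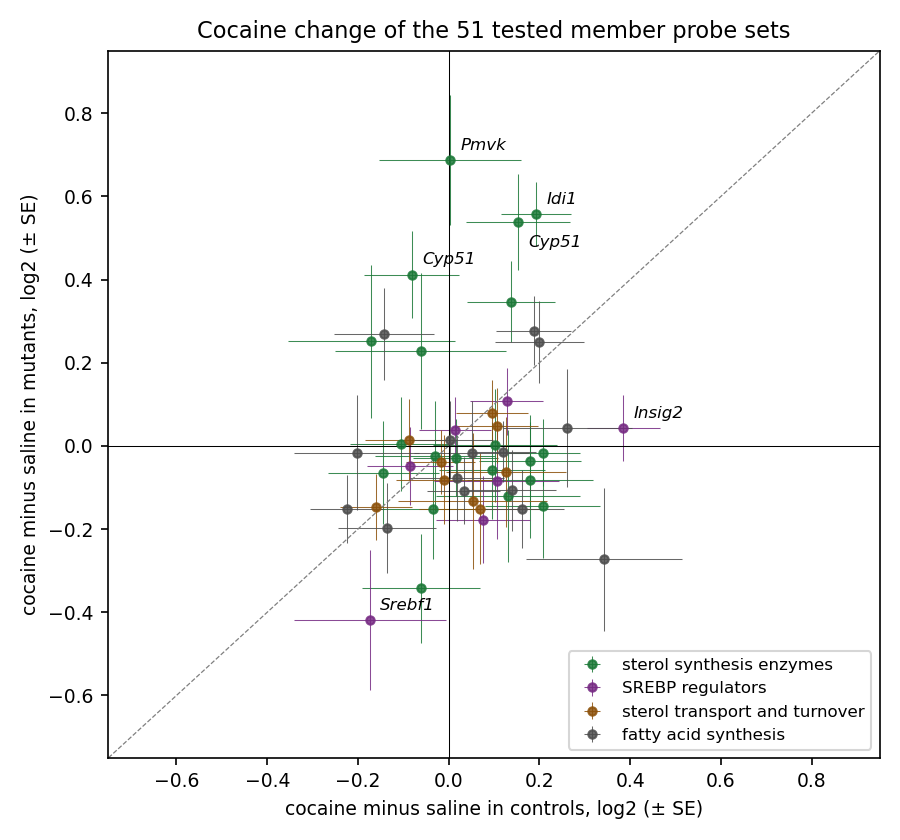
Cocaine minus saline change of log2 signal in controls (horizontal axis) and in mutants (vertical axis), each with its standard error, for the 51 tested probe sets; the dashed line marks equal change. Pmvk, Idi1 and Cyp51 lie highest, at 0.54 to 0.69 in mutants for their called probe sets, while most points lie near 0 on both axes.

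Whether cocaine acted differently in mutants was tested directly, and no listed probe set was called for that difference. Over all probe sets, 0.0721% were called. At an unadjusted p under 0.05 there were 8 of the 51, beside 553 of all 11102 probe sets tested. Among the 8 were Idi1, Pmvk and both Cyp51 probe sets, the dimmer of which passed the filter through mutant arrays. The difference of responses, mutant minus control, was 0.36 for Idi1 (SE 0.11, adjusted p = 0.643), 0.49 for the brighter Cyp51 probe set (SE 0.15, adjusted p = 0.643) and 0.68 for Pmvk (SE 0.22, adjusted p = 0.765). On the other side, the difference was -0.34 for the Insig2 probe set (adjusted p = 0.787) and -0.62 for the dimmest Scd2 probe set (adjusted p = 0.931). The genes called in mutants are therefore not shown to respond differently from controls.

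Other sterol and lipid genes were taken from lists made for comparison. Of 15 other sterol genes tested, limma called 0 higher in mutants and 2 lower over both treatments, with a median of 0.05 and 2 probe sets higher at an unadjusted p under 0.05. In probe sets this was 0 of 27 higher and 3 of 27 lower, beside the background of 4.41% and 5.05%. Mbtps1, the protease that makes the opening cut in SREBP, measured 7.61, 7.57 and 7.56 in saline-treated controls, 7.45, 7.59 and 7.53 in cocaine-treated controls, 7.24, 7.23 and 7.06 in saline-treated mutants and 7.09, 7.37 and 7.24 in cocaine-treated mutants. All 6 mutant arrays lay below the controls, and the log2 difference was -0.35 (SE 0.062, adjusted p = 0.00343). Vldlr, a lipoprotein receptor, differed by -0.27 and -0.25 on its called probe sets (adjusted p = 0.015 and 0.0267). Of 19 other fatty acid and lipid genes, 5 were called higher and 1 lower, with a median of 0.06. In probe sets this was 7 of 29 higher and 1 of 29 lower, beside the same background. The 5 were Lpin1, a phosphatidate phosphatase (log2 0.45, adjusted p = 0.00631), Thrsp (0.48, adjusted p = 0.0106), Acsl4, which activates arachidonate (0.40, adjusted p = 0.0195), Acss2, which makes acetyl-CoA from acetate (0.33, adjusted p = 0.0148), and Elovl4, an elongase of very long chains (0.26, adjusted p = 0.0407). Gpam, which starts glycerolipid synthesis, was lower by -0.21 (adjusted p = 0.0482). Elovl4 was also called higher after cocaine in mutants, by 0.59 (adjusted p = 0.00805), on a probe set that differed by 0.32 in controls. That probe set was not the brightest of Elovl4, and the brightest was not called for cocaine in mutants.

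Because the samples were whole tissue, more cells of a type and more RNA per cell cannot be told apart. Myelin-forming oligodendrocytes and astrocytes make much of the brain's cholesterol, so their markers are given beside these genes. Of 9 oligodendrocyte and myelin genes tested, 0 were called by limma in any of the 7 comparisons (1 of 21 probe sets was higher in mutants at an unadjusted p under 0.05 over both treatments), the median genotype difference was 0.13, and the summed linear signal was 8654 to 10672 in controls and 9390 to 11185 in mutants. Of 11 astrocyte genes, Gfap was called and the median difference was 0.05. The summed astrocyte signal was 3449 to 3919 in controls and 3336 to 3954 in mutants. In probe sets, limma called 1 of 23 higher and 0 of 23 lower for genotype over both treatments, beside a background of 4.41% and 5.05%. At an unadjusted p under 0.05 the list went both ways, with 4 probe sets higher (Fgfr3, Gfap and Gjb6) and 2 lower (Aqp4 and S100b). Gfap has 2 probe sets tested. The brighter measured 3.81 to 4.30 in controls, 4.87, 4.71 and 5.58 in saline-treated mutants and 3.58, 4.26 and 4.26 in cocaine-treated mutants, with a genotype difference of 0.80 after saline that was not called (adjusted p = 0.076), and within mutants it was lower after cocaine (log2 -1.02, adjusted p = 0.0303), the direction opposite to Idi1. The dimmer, the one called for genotype, measured 3.08 to 3.46 in controls, 4.20, 4.46 and 4.99 in saline-treated mutants and 3.28, 3.79 and 3.78 in cocaine-treated mutants. It passed the filter through the saline-treated mutants, the group where it was high, so its calls for genotype and for cocaine in mutants describe no more than that. Mutant saline replicate 3 had the highest Gfap signal and the highest enzyme average of its group. Its summed astrocyte and oligodendrocyte signals were the lowest of that group. By mean deviation, the measure used for the enzymes, its oligodendrocyte markers were the lowest (-0.136). Its astrocyte markers, at 0.033, lay between replicates 1 (0.011) and 2 (0.127). Microglial markers had 0 of 8 genes called by limma for genotype over both treatments, 1 of 12 probe sets at an unadjusted p under 0.05, and a median difference of -0.09. Of 8 striatal neuron genes tested, Penk, Tac1 and Pde10a were called higher and Rgs9 lower, and the summed signal was 9473 to 10448 in controls and 10161 to 11388 in mutants. In probe sets this was 3 of 16 higher and 1 of 16 lower, beside a background of 4.41% and 5.05%, and the median difference was 0.14. No cortical excitatory marker was bright enough to test. The choroid plexus marker Ttr reached 9.61 in control cocaine replicate 3 and stood at 2.83 to 5.90 in the other 11 arrays, and without that replicate the 19 genotype calls over both treatments became 17. The part of these cell types in the enzyme difference was not tested.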

How the data were processed

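Each array measured the striatal RNA of 1 sample. The deposited values are log2 signals made by the authors with GCRMA, which corrects background by probe sequence, normalises between arrays and summarises probe sets, per the submitters' processing notes, which name R 2.4.1. No source used here gives the log base, which was taken as 2 from the range of values (1.26 to 13.1). Array medians were 3.75 to 3.78, so a shift common to all genes would not show, and GCRMA compresses dim signals. Correlations between arrays were 0.976 to 0.993.

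Of 22690 probe sets, 64 controls and those without a log2 signal above 4 in 3 of 12 arrays were left out. limma 3.58.1 in R 4.3.3 fitted the 4 group means on all 12 arrays (8 residual and 4.71 prior degrees of freedom), with Benjamini-Hochberg adjustment over 11102 probe sets, and was tested on simulated data. Medians use the brightest tested probe set of a gene. Gene names come from the platform annotation and promoters from RefSeq, whose orientation was checked by TATA position. Members and lists were chosen with earlier results of these data known. Values in every array are given for members called in any comparison, the brightest uncalled member of each role, and Srebf1, Abca1 and Scd1. Alternatives were no filter, a stricter filter (log2 above 6), quantile or median scaling, array weights, a replicate block, 2-group fits, averaged probe sets and leaving out each array. The replicate numbers did not pair the arrays: of 18 same-number pairs, 1 had a correlation of deviations over 0.1 (range -0.145 to 0.116).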

Additional observations from a re-analysis of the deposited data

How the results depend on the processing

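No called gene result changed direction under any alternative run. The enzyme medians stayed positive, and medians close to 0 changed sign. Over the 40 called gene results, the alternatives kept the call 618 times and lost it 107 times, without a change of direction. The count of probe sets called for genotype over both treatments (19) stayed within 1.5 times under every alternative, from 15 to 20 when 1 array was left out. Other counts moved more. Without a filter, the calls for cocaine in mutants fell from 3 to 1, those for cocaine over both genotypes from 2 to 1, and those for genotype after saline from 8 to 5. With the stricter filter, 1 probe set was called for cocaine in controls in place of 0. Array weights also gave 1 there, and 13 in place of 8 for genotype after cocaine. Fits of only the 2 groups compared gave 1 call for cocaine in mutants and 3 for genotype after saline.

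With the replicate number as a block, the calls for cocaine over both genotypes fell from 2 to 1. No other count moved by over 1.5 times under the block. The numbers do not pair the arrays, and 2 arrays correlated best with one of their own number.

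Leaving out 1 array each gave 1 to 4 calls for cocaine in mutants, 1 to 2 over both genotypes, 0 to 0 in controls and for the difference of responses, 5 to 8 for genotype after saline and 5 to 11 after cocaine. The genotype medians ranged from 0.317 to 0.381 for enzymes, 0.103 to 0.203 for regulators, 0.031 to 0.091 for transport and -0.026 to 0.033 for fatty acid genes. The cocaine medians ranged from 0.025 to 0.115, -0.046 to 0.007, -0.07 to 0.014 and -0.014 to 0.055 in the same order, so those of 3 roles crossed 0, as did the genotype median of the fatty acid genes. Averaging a gene's probe sets left every median within the spread between arrays. Signals under 4 limit what can be said of Mvk, Mvd, Hsd17b7 and Acaca.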
